A study of Homo sapiens with 6 samples.

Results

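The genes described here encode the vacuolar proton pump and the enzymes and membrane proteins of the lysosome. They were chosen by gene symbol from the deposited count table, and all 46 symbols listed were found among its 19470. The study compared A549 cells, a human lung adenocarcinoma line labelled as wild type, in 2 groups of 3 libraries each: activated cells, which had received osteoclast-conditioned medium (osteoclasts being the cells that resorb bone), and dormant cells. The design asked which genes differ as dormant cells become active. The labels do not say how the cells were made dormant, for how long either group was treated, or what medium the dormant cells were in, so activation and a difference of medium cannot be told apart. Separate cultures are not stated for the libraries, and p-values therefore measure only the spread between these libraries. Total counts were 34478795 to 36397989 per activated library and 34128471 to 36667725 per dormant library.

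The vacuolar ATPase (V-ATPase) pumps protons into lysosomes and other compartments. Its cytosolic V1 sector hydrolyses ATP, and its membrane-embedded V0 sector carries the protons. The 2 sectors can come apart and reassemble, which switches the pump off and on. Several subunits have alternative forms encoded by separate genes. TCIRG1, which encodes the a3 form of subunit a, and ATP6V0D2, which encodes the d2 form of subunit d, are known from the pump that osteoclasts place at the bone surface. The acid inside the lysosome activates cathepsins, glycosidases and lipid hydrolases. Many of these genes carry a CLEAR element in their promoters, an E-box bound by TFEB and related factors of the MiT/TFE family.

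Promoter sequences were available from RefSeq (GRCh38.p14) for 33 of the 46 members, as windows from 250 bases before to 50 bases after the annotated start. The motif TCACGTG, searched on both strands, was found in 10 of the 33 windows (30.3%), against 621 of 10712 windows of tested genes (5.80%) and 3.82% of all 27305 windows. The shorter core CACGTG, which lies within it, was found in 11 members (33.3%, against 10.02% of windows of tested genes), and the palindrome TCACGTGA, which contains both, in 6 (18.2%, against 1.91%). Windows with TCACGTG belonged to 3 of 7 members that were higher in activated cells, 5 of 16 that were lower and 2 of 10 that did not pass the test. The motif was therefore present in windows of members that moved in either direction. GAA and ATP6V1G1 are shown because they carry the palindrome and moved in opposite directions. NEU1 and CTSA, whose products share a complex, are shown because both fell and hold TCACGTG. TCIRG1 and ATP6V0A1 are shown because they encode alternative forms of subunit a, moved in opposite directions and hold none of these motifs in the window. Each stretch is 100 bases from before the start, written 5′ to 3′ on the gene's strand, with the longest motif found at each place in capitals. GAA is from chr17:80101464-80101563 on the + strand, ATP6V1G1 from chr9:114587669-114587768 on the + strand, NEU1 from chr6:31862889-31862988 on the - strand, CTSA from chr20:45891235-45891334 on the + strand, TCIRG1 from chr11:68038925-68039024 on the + strand and ATP6V0A1 from chr17:42458778-42458877 on the + strand.
GAA: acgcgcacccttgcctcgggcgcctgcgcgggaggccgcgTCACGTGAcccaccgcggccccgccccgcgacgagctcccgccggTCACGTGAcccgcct
ATP6V1G1: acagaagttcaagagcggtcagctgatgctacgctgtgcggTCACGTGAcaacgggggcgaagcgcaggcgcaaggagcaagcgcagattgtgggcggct
NEU1: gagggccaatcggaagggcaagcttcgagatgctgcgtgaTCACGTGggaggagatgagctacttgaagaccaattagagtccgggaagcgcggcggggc
CTSA: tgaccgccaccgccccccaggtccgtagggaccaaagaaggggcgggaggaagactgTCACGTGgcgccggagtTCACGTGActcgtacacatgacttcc
TCIRG1: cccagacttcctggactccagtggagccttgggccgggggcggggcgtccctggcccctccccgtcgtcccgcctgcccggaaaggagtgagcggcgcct
ATP6V0A1: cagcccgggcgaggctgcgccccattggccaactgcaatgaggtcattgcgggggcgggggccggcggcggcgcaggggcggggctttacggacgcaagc
A match is a description of the letters and not a measured binding site.

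In activated cells the V1 sector was lower nearly throughout, subunit a shifted to TCIRG1 and ATP6V0D2 was close to undetected. The lysosomal enzymes moved in both directions, as tested genes did in general. Of the 46 members, 9 rose and 25 fell at an adjusted p under 0.05 (edgeR quasi-likelihood, Benjamini-Hochberg over all 13336 tested genes), and 12 did not pass. Of the members 19.6% rose and 54.3% fell, against 36.5% and 37.2% of all tested genes. The share of members that passed in either direction, 73.9%, was close to the 73.7% of all tested genes. Values of activated and dormant libraries did not overlap for 36 of 46 members (78.3%), also close to the 76.5% of all tested genes. The median log2 fold change of the members was -0.20, against -0.02 over all tested genes. Changes of at least 2-fold were seen for 3 members that rose and 5 that fell, while 11.2% of tested genes rose and 11% fell by as much. All 46 members passed the filter on low counts, ATP6V0D2 only through the dormant libraries, so it could only be seen to fall. It is counted among the 25 and the 5 that fell. In bulk RNA, fewer cells of a type and less RNA per cell cannot be told apart. Scaling by total counts and not by TMM factors lowers the median of all genes by 0.14 on the log2 scale (shift -0.14), and 7 members then rose and 30 fell. With total counts 1 member rose and 6 fell by at least 2-fold, since CTSB (0.93) and GLA (0.92) came under and ATP6V1C1 (-1.05) came over a log2 change of 1. Without activated replicate 1, and likewise after a gene length correction, 2 members rose and 5 fell by at least 2-fold.

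**Figure D1:**
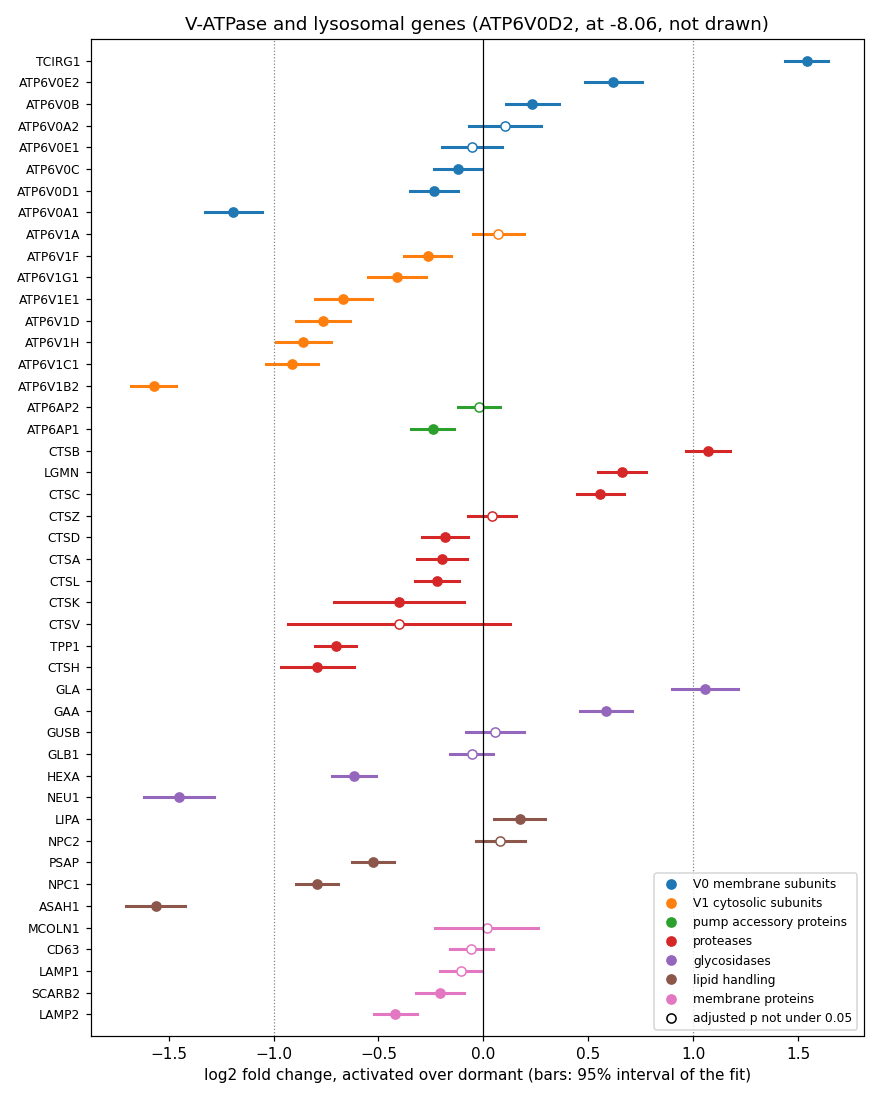
Log2 fold change of 45 members, activated over dormant, grouped by role, with the 95% interval of the fit as bars and open circles for members that did not pass an adjusted p of 0.05. Of the V1 subunits, 7 of 8 lie left of 0 with filled circles, while TCIRG1, CTSB and GLA lie to the right of 1 and ATP6V0D2 (log2 fold change -8.06) is not drawn.

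In the V1 sector 7 of 8 genes fell (87.5%, against 37.2% of all tested genes), none rose and the median log2 fold change was -0.72. The largest fall was that of ATP6V1B2, the B2 form of the subunit that forms the catalytic ring together with subunit A. It had 61.8, 59.7 and 59.3 CPM (counts scaled to library size with TMM factors) in the activated libraries, against 176, 185 and 175 CPM in the dormant ones. All activated libraries lay far below all dormant ones, at a log2 fold change of -1.57 ± 0.05 SE (adjusted p = 1.34e-12), or 2.97-fold lower. Its catalytic partner ATP6V1A, which binds and hydrolyses ATP, had 69.9, 71.7 and 66.7 CPM in activated libraries and 62.5, 68.1 and 67.6 CPM in dormant ones, and these ranges overlapped. Its log2 fold change was 0.07 (95% interval -0.05 to 0.19, adjusted p = 0.275) and took the other sign with total counts (-0.07). The interval of ATP6V1B2, -1.68 to -1.46, lay apart from that of ATP6V1A.

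ATP6V1C1, whose subunit joins V1 to V0 and is released when the sectors separate, fell to 84.5 ± 4.49 CPM in activated cells, against 159 ± 8.18 CPM in dormant cells (SD, n = 3), 1.88-fold lower. ATP6V1H, a regulatory subunit that also bridges the sectors, averaged 38.5 ± 2.53 CPM in activated cells and 69.8 ± 1.06 CPM in dormant cells and was 1.81-fold lower. The central stalk subunit ATP6V1D was 1.70-fold lower, and the peripheral stalk subunits ATP6V1E1 and ATP6V1G1 were 1.59-fold and 1.33-fold lower. ATP6V1F, another stalk subunit, had the smallest fall, 1.20-fold. In each of these 6 genes every activated library lay below every dormant one. Of the exon bases of ATP6V1F, 23.7% overlap KCP on the opposite strand, which had 5 activated and 1294 dormant counts over the group, beside 11508 and 15240 counts of ATP6V1F. The sources do not give the strand setting of the counting, and the part of KCP reads in the fall of ATP6V1F was not tested.

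In the V0 sector, alternative forms of subunit a moved in opposite directions. Of its 9 genes, 3 rose (33.3%) and 4 fell (44.4%, ATP6V0D2 among them), against 36.5% and 37.2% of all tested genes. The median log2 fold change was -0.06. TCIRG1 (chromosome 11, 68039025 to 68053762, GRCh38.p14) had 194, 199 and 197 CPM in activated libraries, against 66.2, 68.0 and 69.1 CPM in dormant ones. Each group was tight and the groups were far apart, at a log2 fold change of 1.54 ± 0.05 SE (adjusted p = 1.06e-12), 2.90-fold higher. ATP6V0A1 (chromosome 17, 42458878 to 42522579), which encodes the a1 form, had 68.7, 57.2 and 61.8 CPM in activated libraries, against 143, 146 and 139.9 CPM in dormant ones. It fell 2.28-fold in activated cells (log2 fold change -1.19 ± 0.06 SE, adjusted p = 3.04e-10), with no overlap. ATP6V0A2, the a2 form, had 33.6, 42.2 and 36.8 CPM in activated libraries and 35.2, 34.2 and 35.5 CPM in dormant ones, an overlapping range with a log2 fold change of 0.10 (95% interval -0.07 to 0.27, -0.04 with total counts).

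Levels of different genes were compared in FPKM, the authors' counts scaled by gene length and by library total. TCIRG1 made up 64.1%, 64.5% and 64.8% of the summed FPKM of the subunit a genes in activated libraries, against 26.9%, 27.3% and 28.0% in dormant ones. ATP6V0A1 made up 21.1%, 17.2% and 18.9% in activated libraries, against 53.9%, 54.3% and 52.7% in dormant ones. The most abundant subunit a transcript was thus TCIRG1 in every activated library and ATP6V0A1 in every dormant library. The share of TCIRG1 differed by 37.1 percentage points (two-sided exact permutation p = 0.1, the smallest that 3 libraries against 3 allow). Such shares do not depend on how libraries are scaled.

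ATP6V0D2, the d2 form, had 0.0292, 0 and 0.183 CPM in activated libraries, against 21.3, 18.2 and 18.5 CPM in dormant ones. These rest on 1, 0 and 6 activated counts and 797, 707 and 660 dormant counts. Scaled by library totals and TMM factors, the summed counts were 281-fold lower in activated cells. The exact binomial 95% interval, 136 to 699, covers counting error only. The fitted fold was 267, and 1073 without activated replicate 3, which held 6 of the 7 activated counts. No p-value is given, since the gene entered the test through the dormant libraries alone and could only be seen to fall. ATP6V0D1, the widely expressed d1 form, was at 131, 117 and 128 CPM in activated libraries and 148, 146 and 148 CPM in dormant ones and fell 1.18-fold. ATP6V0D2 made up 0.0187%, 0% and 0.120% of the subunit d FPKM in activated libraries, against 10.7%, 9.45% and 9.45% in dormant ones. The osteoclast-type form of subunit a was thus higher in activated libraries. That of subunit d was lower, in a gene that could only be seen to fall.

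**Figure D2:**
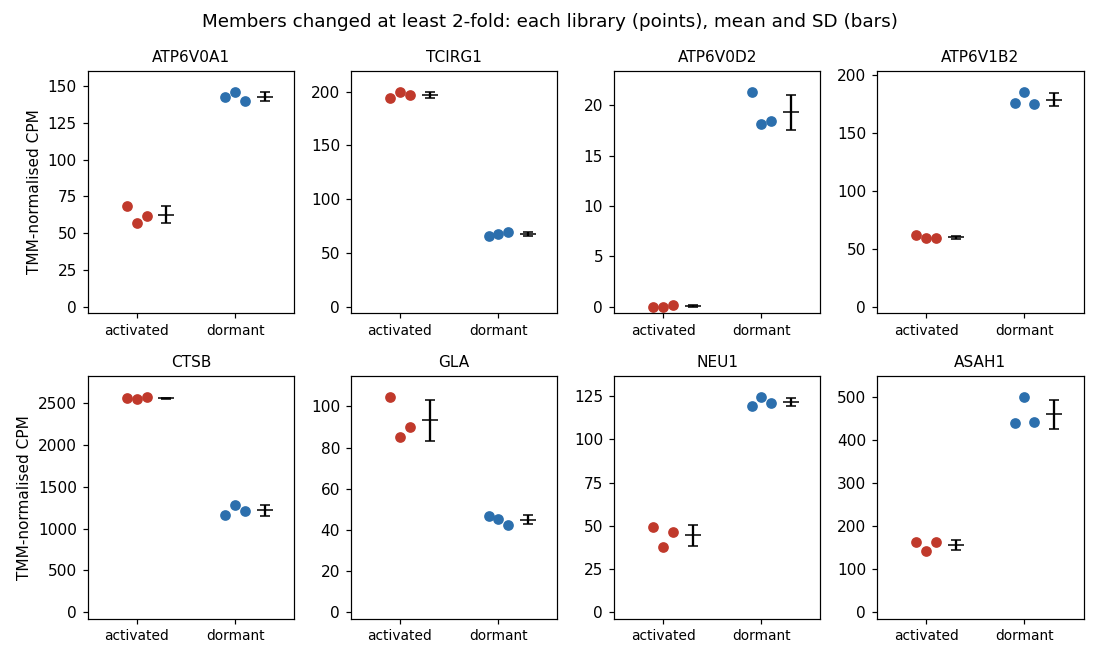
TMM-normalised CPM of the 8 members changed at least 2-fold, with a point per library, the mean as a dash and the SD as a bar (n = 3 per group), on linear axes that differ between panels. TCIRG1, CTSB and GLA are higher in all activated libraries, and the other 5 genes are higher in all dormant libraries, ATP6V0D2 being close to 0 in the activated ones.

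**Figure D3:**
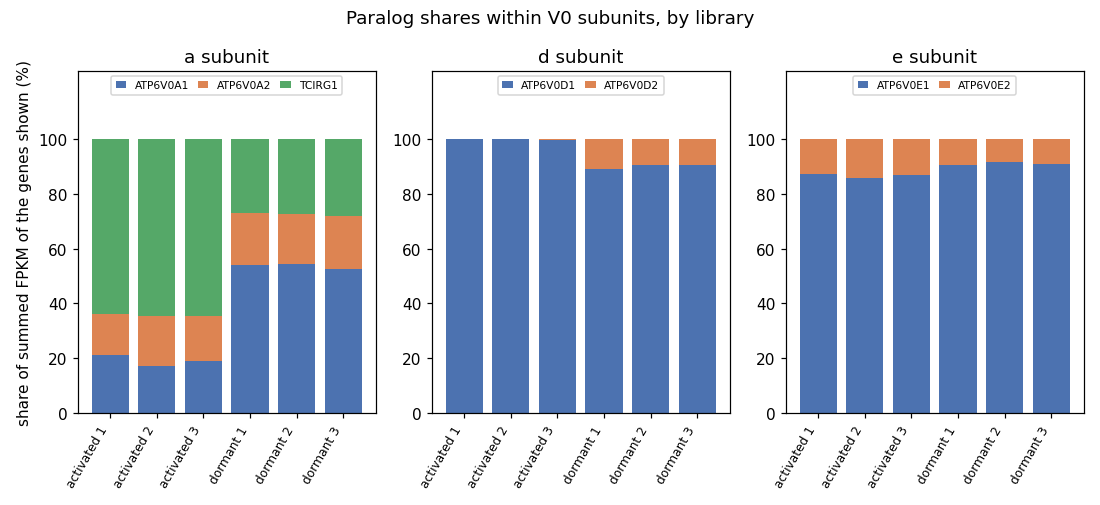
Share of summed FPKM, in percent, of the genes that encode subunits a, d and e, in each of 3 activated and 3 dormant libraries. The TCIRG1 share is about 64% in activated libraries and about 27% in dormant ones, ATP6V0D2 is visible only in dormant libraries, and ATP6V0E2 is larger in activated ones.

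The remaining V0 genes moved less. ATP6V0E2, a form of the small subunit e, rose 1.54-fold, with 90.0, 80.3 and 85.6 CPM in activated libraries and 59.6, 53.0 and 54.2 CPM in dormant ones. Its more abundant partner ATP6V0E1 was at 257 ± 28.0 CPM in activated cells and 267 ± 7.89 CPM in dormant cells (SD, n = 3), with a log2 fold change of -0.06 (95% interval -0.20 to 0.09). Scaled by total counts ATP6V0E1 was lower past the threshold (-0.20, adjusted p = 0.0156). ATP6V0E2 made up 12.9%, 14.1% and 13.2% of subunit e FPKM in activated libraries, against 9.26%, 8.30% and 8.89% in dormant ones. The proteolipid genes of the rotating ring were near the threshold. ATP6V0B rose 1.17-fold (adjusted p = 0.00250), a call that ended with total counts (adjusted p = 0.174) and after a gene length correction (adjusted p = 0.869). ATP6V0C fell 1.09-fold (adjusted p = 0.0473), a call that ended with DESeq2 (adjusted p = 0.0749) and without activated replicate 2 or any 1 dormant replicate (adjusted p = 0.0884 to 0.200). ATP6V0C, ATP6V0E1, ATP6V1E1, ATP6V1G1, CTSL, LGMN and GUSB have pseudogenes that carry their names in GENCODE 29, to which some of their reads could be lost.

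Of the accessory proteins, ATP6AP1, which is needed to assemble the pump, had 184, 175 and 188 CPM in activated libraries and 209.7, 218 and 219 CPM in dormant ones and fell 1.18-fold. ATP6AP2, also called the prorenin receptor, averaged 141 ± 2.32 CPM in activated cells and 143 ± 3.21 CPM in dormant cells, with a log2 fold change of -0.02 (95% interval -0.12 to 0.08). Scaled by total counts it was lower past the threshold (-0.16, adjusted p = 0.00693).

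Summed over the sector, V1 transcripts were at 368, 332 and 340.5 FPKM in activated libraries, against 558, 579 and 561 FPKM in dormant ones. V0 transcripts summed to 565, 507 and 547 FPKM in activated libraries, against 602, 609 and 594 FPKM in dormant ones. Over all libraries ATP6V1F, the gene that overlaps KCP, made up 36.0% of the V1 sum, and ATP6V0E1 made up 32.4% of the V0 sum. Neither sum overlapped between groups (exact permutation p = 0.1 each, the smallest possible), at an activated over dormant ratio of 0.897 for V0 and 0.613 for V1. With FPKM rescaled by TMM factors the V0 sums overlapped, at 593, 531 and 574 in activated libraries and 579, 574 and 566 in dormant ones (exact permutation p = 0.9), while the V1 sums did not. The ratio of V1 to V0 summed FPKM was 0.652, 0.655 and 0.623 in activated libraries, against 0.927, 0.952 and 0.944 in dormant ones (exact permutation p = 0.1). This ratio was added after the values had been seen and does not depend on library scaling.

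**Figure D4:**
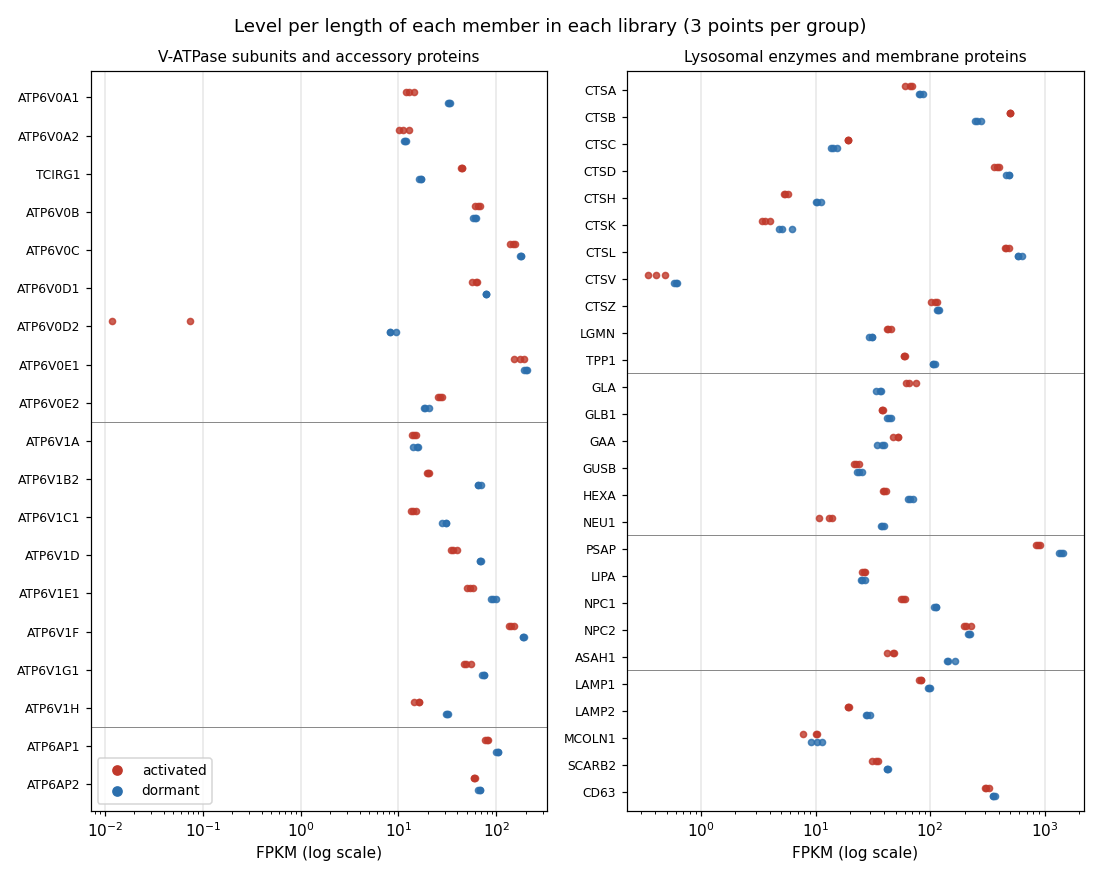
FPKM of all 46 members on a log scale, with 3 activated libraries above 3 dormant libraries for each gene and values of 0 not drawn (1 activated library of ATP6V0D2). PSAP, CTSB, CTSL and CTSD are the most abundant members in the activated libraries, and the V1 genes other than ATP6V1A lie to the left in the activated libraries.

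Genes of the pump outside the 46 were read from a further list of 16 that holds tissue-restricted subunits and assembly factors. Of its 14 tested genes 3 rose (21.4%) and 5 fell (35.7%), against 36.5% and 37.2% of all tested genes. The median log2 fold change was 0.01. ATP6V1G2 is counted among the 5 that fell, with 15 activated and 126 dormant counts. It entered the test through the dormant libraries alone and could only be seen to fall. ATP6V0A4 entered through the activated libraries alone and did not pass. DMXL1 and DMXL2, large proteins of the rabconnectin complex that assists the assembly of V1 with V0, fell 1.47-fold and 1.46-fold. ROGDI, a partner of that complex, rose 1.83-fold. WDR7, a further gene of this list, did not pass (log2 fold change -0.17, edgeR adjusted p = 0.142), and its libraries overlapped between groups. DMXL1, DMXL2, ROGDI and WDR7 were named after their values were seen. The kidney-type subunit a gene ATP6V0A4 averaged 0.819 CPM in activated and 0.472 CPM in dormant cells, so this further form was near absent from both groups.

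Lysosomal proteases were split, with 3 of 11 higher (27.3%), 6 lower (54.5%) and 2 that did not pass, against 36.5% and 37.2% of all tested genes. CTSB, a cysteine protease and the most abundant member to rise, had 2557, 2554 and 2569.7 CPM in activated libraries, against 1160.2, 1288 and 1212 CPM in dormant ones. All activated libraries lay within a narrow range above the dormant ones, 2.10-fold higher (log2 fold change 1.07 ± 0.05 SE, adjusted p = 5.68e-11). LGMN (legumain), an asparaginyl endopeptidase that cleaves cathepsin precursors, rose 1.58-fold, with 101, 109 and 103 CPM in activated and 67.7, 67.1 and 63.4 CPM in dormant libraries. CTSC, which activates serine proteases of immune cells by removing dipeptides, rose 1.47-fold, with 154, 154 and 154 CPM in activated and 99.7, 111 and 104 CPM in dormant libraries.

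Among the proteases that fell, CTSH, an aminopeptidase, had 17.3, 16.1 and 15.8 CPM in activated libraries and 30.3, 27.6 and 27.2 CPM in dormant ones, 1.73-fold lower. TPP1, a tripeptidyl peptidase whose loss causes a form of Batten disease, had 219, 216 and 223 CPM in activated and 353, 366 and 352 CPM in dormant libraries, 1.63-fold lower. Both genes were separated between groups without overlap. The abundant cathepsins L and D fell by less. CTSL averaged 793 ± 31.0 CPM in activated cells and 925 ± 34.9 CPM in dormant cells, 1.17-fold lower, and CTSD, an aspartic protease, was 1.14-fold lower (adjusted p = 0.00464). CTSA, which protects beta-galactosidase and NEU1 from breakdown in a shared complex, was 1.15-fold lower; 17.7% of its exon bases overlap NEURL2 on the opposite strand, which had 25 activated and 76 dormant counts. In FPKM, CTSB and CTSL averaged 495 and 468 in activated cells, against 260.0 and 602 in dormant cells, so the order of these levels differed between the groups.

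CTSK, the main collagen-degrading protease of osteoclasts, was low in both groups, with 6.84, 5.88 and 6.15 CPM in activated libraries and 7.56, 9.49 and 7.89 CPM in dormant ones. It fell 1.32-fold (adjusted p = 0.0202), and the call ended without dormant replicate 2 (adjusted p = 0.108), without activated replicate 2 (0.0575) and without activated replicate 3 (0.0537). CTSV, a close relative of CTSL known from thymus and testis, had 76, 65 and 52 activated counts and 97, 97 and 87 dormant counts and a log2 fold change of -0.40 (95% interval -0.93 to 0.12). Its CPM did not overlap between groups, and it passed as lower in the fits on log2(FPKM + 1) (adjusted p = 0.0417) and log2(FPKM + 0.1) (adjusted p = 0.0404). It made up 0.0983%, 0.0892% and 0.0744% of the summed FPKM of CTSL and CTSV in activated libraries and 0.104%, 0.0948% and 0.0992% in dormant ones, which overlap. CTSZ, a carboxypeptidase, averaged 173 ± 10.9 CPM in activated cells and 168 ± 2.54 CPM in dormant cells (95% interval of the log2 fold change -0.07 to 0.16), and the sign of its estimate turned with total counts (-0.10).

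Glycosidases had 2 of 6 higher (33.3%) and 2 lower (33.3%), close to the 36.5% and 37.2% of all tested genes, and 2 did not pass. GLA (alpha-galactosidase A, the enzyme deficient in Fabry disease) had 104, 85.3 and 89.8 CPM in activated libraries, against 46.9, 45.0 and 42.5 CPM in dormant ones. The lowest activated library lay well above the highest dormant one, 2.08-fold higher on the fit (log2 fold change 1.06 ± 0.07 SE, adjusted p = 5.88e-09). The fold was 1.96 without activated replicate 1, and the log2 fold change was 0.91 after the gene length correction. GAA, which breaks down lysosomal glycogen and whose promoter holds 2 copies of the palindrome shown above, rose by a log2 fold change of 0.58, with 186, 204 and 202 CPM in activated and 123, 134 and 139 CPM in dormant libraries. NEU1, the lysosomal sialidase, had 49.3, 37.7 and 46.6 CPM in activated libraries, against 119.6, 124 and 121 CPM in dormant ones. Activated replicate 2 was the lowest and no activated library approached the dormant ones, 2.73-fold lower (log2 fold change -1.45 ± 0.08 SE, adjusted p = 3.64e-10). HEXA, the alpha subunit of beta-hexosaminidase, fell 1.53-fold, with 208, 199 and 197 CPM in activated and 299.8, 320.3 and 305 CPM in dormant libraries. GLB1, the beta-galactosidase often assayed as a marker of senescence, had a log2 fold change of -0.06 (95% interval -0.16 to 0.05) and was lower past the threshold with total counts (adjusted p = 0.00197). GUSB, beta-glucuronidase, had a log2 fold change of 0.05 (95% interval -0.08 to 0.19, -0.09 with total counts).

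Of 5 genes of lysosomal lipid handling, 3 fell (60%, against 37.2% of all tested genes) and 1 rose (20%, against 36.5%). ASAH1, acid ceramidase, which splits ceramide, had 163, 142 and 162 CPM in activated libraries, against 439, 498 and 440.2 CPM in dormant ones. Dormant replicate 2 was the highest, and every activated library lay far below the lowest dormant one, 2.95-fold lower on the fit (log2 fold change -1.56 ± 0.07 SE, adjusted p = 2.21e-11). PSAP, the precursor of the saposins that present lipids to hydrolases, had the highest FPKM of the members in both groups (876 in activated and 1391 in dormant cells), with 2455, 2611 and 2538 CPM in activated libraries and 3521, 3747 and 3691 CPM in dormant ones, 1.44-fold lower. NPC1, the membrane protein that exports cholesterol from the lysosome, had 441, 471 and 460.2 CPM in activated and 777, 793 and 807 CPM in dormant libraries, 1.73-fold lower. NPC2, the soluble protein that hands cholesterol to NPC1, averaged 273 ± 19.7 CPM in activated cells and 259 ± 3.56 CPM in dormant cells, with a log2 fold change of 0.08 (95% interval -0.04 to 0.20, -0.06 with total counts). The difference between the 2 partners of cholesterol export was not tested. LIPA, the acid lipase, had 91.3, 84.7 and 89.4 CPM in activated and 83.2, 76.6 and 75.8 CPM in dormant libraries and rose 1.13-fold (adjusted p = 0.0127), a call that ended with total counts (adjusted p = 0.606) and without dormant replicate 3 (0.0626).

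Of 5 membrane proteins of the lysosome 2 fell (40%, against 37.2% of all tested genes) and none rose (against 36.5%). LAMP2, which also serves chaperone-mediated autophagy, had 188, 188 and 195 CPM in activated libraries and 253, 265 and 246 CPM in dormant ones, 1.34-fold lower without overlap. SCARB2, also called LIMP-2, a heavily glycosylated protein of the lysosomal membrane, was 1.15-fold lower. LAMP1 had 202, 195 and 200.2 CPM in activated libraries and 210.0, 212 and 220.1 CPM in dormant ones and missed the threshold (log2 fold change -0.11, adjusted p = 0.0538). It passed with total counts (adjusted p = 0.000224), limma voom (0.0426), upper-quartile factors (0.0179) and the gene length correction (0.000255), but not with DESeq2. CD63, a tetraspanin of late endosomes and exosomes, had a log2 fold change of -0.06 (95% interval -0.16 to 0.04) and passed as lower with total counts (adjusted p = 0.00143). The calcium channel gene MCOLN1 averaged 20.6 ± 3.18 CPM in activated cells and 20.4 ± 2.20 CPM in dormant cells (95% interval of the log2 fold change -0.23 to 0.26, -0.13 with total counts).

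In a list of 47 other lysosomal hydrolases and cofactors found in the table, 17 of 44 tested genes rose (38.6%) and 16 fell (36.4%). These shares were close to the 36.5% and 37.2% of all tested genes, and the median log2 fold change was 0.03. The rule for naming genes, a fold of at least 3, picked 1 gene of this list. SMPD1, acid sphingomyelinase, which makes ceramide and so acts just before ASAH1, had 12.0, 8.59 and 12.5 CPM in activated libraries and 34.9, 40.6 and 38.5 CPM in dormant ones, 3.45-fold lower (adjusted p = 3.04e-09). Of 28 tested genes of lysosomal membranes and of sorting to the lysosome, 10 rose (35.7%) and 12 fell (42.9%), against 36.5% and 37.2% of all tested genes. The median was -0.13, and with total counts 9 rose and 17 fell. Named after their values were seen, the mannose 6-phosphate receptors M6PR and IGF2R, which carry newly made hydrolases to the lysosome, fell 1.72-fold and 1.87-fold. M6PR had 215, 213 and 220.0 CPM in activated and 381, 371 and 359.8 CPM in dormant libraries. Of 8 cathepsin inhibitors 4 were tested, and the 2 that had enough counts in both groups moved in opposite directions. CST3 (cystatin C) rose 1.27-fold and CSTB (cystatin B), which was 1.15-fold lower, passed the test at an adjusted p of 0.0157. Both were named after their values were seen. The other 2, also named after their values were seen, each entered the test through 1 group alone and could move only one way. CST1 (76 activated and 40 dormant counts) entered through the activated libraries and rose. CSTA (33 activated and 104 dormant counts) entered through the dormant ones and fell. Over the list, with these included, 2 of 4 tested genes rose and 2 fell (50% each, against 36.5% and 37.2% of all tested genes). Only 1 was higher whichever library was left out, and 0 were lower without dormant replicate 1.

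Of the MiT/TFE factors, TFEB rose 2.05-fold, with 8.68, 8.82 and 9.60 CPM in activated and 4.86, 4.66 and 3.66 CPM in dormant libraries, and TFE3, the most abundant, rose 1.23-fold. MITF fell 1.38-fold, with 29.2, 24.5 and 27.8 CPM in activated and 42.1, 36.1 and 34.6 CPM in dormant libraries. TFEC had 1, 0 and 1 activated counts and 0, 1 and 2 dormant counts and was not tested.

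Since TCIRG1, ATP6V0D2 and CTSK are also known from osteoclasts, markers of osteoclasts and of myeloid cells were read beside them. Of 10 other osteoclast markers 6 were tested, with 2 higher (33.3%), 2 lower (33.3%) and 2 that did not pass, against 36.5% and 37.2% of all tested genes. Of these 6, ACP5 and OSCAR entered the test through the counts of dormant libraries alone and MMP9 through those of activated ones, so each could move only one way. The summed level of the 10 was 246 to 329 CPM in activated libraries and 30.8 to 33.2 CPM in dormant ones, mostly from ITGB3, an integrin subunit (265 CPM in activated and 5.88 CPM in dormant cells). MMP9 also rose, with 78 activated and 16 dormant counts over the group. ACP5, the acid phosphatase used to stain osteoclasts, fell, with 5 activated and 63 dormant counts, and NFATC1, a transcription factor of osteoclast formation, fell 1.81-fold. DCSTAMP, OCSTAMP and CALCR had 0 counts in all libraries. Of 14 myeloid markers, 5 were tested and all 5 rose (4 with total counts), against 36.5% of all tested genes. Their list had a summed level of 166 to 174 CPM in activated libraries and 136 to 148 CPM in dormant ones. Most of the sum was CD68 (152 CPM in activated and 135 CPM in dormant cells), and lower-level markers rose by more. CD14 rose 8.37-fold (940 activated and 124 dormant counts) and ITGAM 1.73-fold. LAPTM5 (214 activated and 25 dormant counts) and CSF1R (79 activated and 10 dormant counts) also rose. Both entered the test through the activated libraries alone, so both could only be seen to rise. TYROBP, AIF1, C1QA, C1QB and C1QC had 0 counts in all libraries. The other untested markers were near 0. PTPRC had 5 activated and 1 dormant counts, SPI1 7 and 11, FCER1G 11 and 11, and CD163 0 and 1. The part of RNA from other cells in the values of TCIRG1, ATP6V0D2 and CTSK was not tested. All 8 epithelial and A549-associated markers were detected in both groups, at a sum of 16589 to 18154 CPM in activated and 8194 to 8819 CPM in dormant libraries. Of these 5 rose (62.5%, against 36.5% of all tested genes), foremost ALDH1A1 (7700.4 CPM in activated and 1570.3 CPM in dormant cells). KRT19 and AKR1C2 did not pass. KRT7 fell 1.12-fold with overlapping libraries (adjusted p = 0.0350). That call ended without dormant replicate 1 or 3 and without activated replicate 2 or 3. Marker genes were named after their values were seen.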

How the data were processed

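TRIzol RNA was turned into libraries with the VAHTS Universal V6 kit, per the labels' protocols. One table deposited by the authors gives raw counts for each gene symbol. A second, also deposited, gives FPKM, which are those counts scaled by gene length and by the table's total: count over FPKM followed the ratio of the totals to within 1.41e-09 for genes with at least 100 counts. The tools named are fastp, HISAT2 and HTSeq and the build is GRCh38, per the submitters' processing notes; no source used here gives the annotation or strand setting.

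All 6 libraries entered edgeR's quasi-likelihood test (version 4.0.16, in R 4.3.3) with TMM factors. Low genes were removed by filterByExpr with groups, and p-values were Benjamini-Hochberg adjusted over 13336 genes. The procedure was tested on simulated counts in which few genes changed, so that test does not cover scaling under changes as widespread as those here. Standard errors are the log2 fold change over the square root of F, and intervals use the total degrees of freedom of the fit. Shares and sums used FPKM and a two-sided exact permutation test. Alternatives were DESeq2 1.42.0 or its size factors, total counts, upper-quartile factors, limma 3.58.1 (voom, or log2(FPKM + 1) and log2(FPKM + 0.1)), other filters, a loess correction for gene length, the replicate number as a block and leaving out each library. Members and lists were chosen with earlier results of these data known. Every member could be named. Values in every library were required for changes of at least 2-fold, for the osteoclast-type genes and for the largest rise and fall of each role. Of the other pathway lists, genes past the threshold with a fold of at least 3 and a mean of at least 1 CPM were named. Coordinates are 1-based from RefSeq, and exon overlaps from GENCODE 29, in which 8 members share exon bases with another counted gene.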

Additional observations from a re-analysis of the deposited data

How the results depend on the processing

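Counts of members and of all genes that changed stayed within 1.5 times under every setting run. Members changed numbered 33 to 38, against 34, under the other scalings, tools, filters and units, and 32 to 37 when 1 library was left out, with 8 to 10 higher and 23 to 27 lower. All genes changed numbered 9109 to 10009, and 9298 to 9756 when 1 library was left out. A replicate block gave 9789 genes and 34 members, 9 of them higher and 25 lower. The pairing by number was not used, since same-numbered libraries had correlations of deviations of -0.0182, 0.0193 and -0.00276. Of 828 member values under alternatives, 742 kept direction and side of the threshold, 20 lost a call, 33 gained one and 33 changed sign. The sign changes fell on 7 members that had not passed the test. ATP6V0A2 was at -0.0365 with total counts and -0.0391 or -0.0427 in the FPKM fits (pseudocounts 1 and 0.1, with or without a filter). In the same order ATP6V1A was at -0.0694 and -0.0644 or -0.0682, CTSZ at -0.0976 and -0.0983 or -0.0991, GUSB at -0.0852 and -0.0816 or -0.0847, NPC2 at -0.0604 and -0.0622 or -0.0625, and MCOLN1 at -0.126 and -0.119 or -0.130. The gene length correction gave CTSZ -0.0857, GUSB -0.0608, NPC2 -0.0730 and MCOLN1 -0.106, and upper-quartile factors gave MCOLN1 -0.0123. Leaving out 1 library gave a range of -0.0571 to 0.141 for MCOLN1 and -0.128 to 0.0274 for ATP6V0E1. The cause was not tested, except that total counts and FPKM share a scaling that lowers the median of all genes.

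With CPM in place of FPKM the share differences were 38.7 points for TCIRG1, -11.5 for ATP6V0D2, 7.77 for ATP6V0E2 and -0.033 for CTSV, against 37.1, -9.83, 4.59 and -0.0121, because gene lengths differ. With FPKM rescaled by TMM factors, log2 ratios of summed levels were V0 membrane subunits -0.018, V1 cytosolic subunits -0.567, pump accessory proteins -0.152, proteases 0.091, glycosidases 0.050, lipid handling -0.501, membrane proteins -0.094, against -0.157, -0.707, -0.291, -0.048, -0.089, -0.640, -0.233 as deposited. The ratio of V1 to V0 differed by -0.379 with CPM, against -0.298. The interval of ATP6V0D2 was limited by its 7 activated counts.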

Other observations

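Genes of glycosphingolipid breakdown outside the 46, named here after their values were seen, also moved in both directions. GALC, which cleaves galactosylceramide, averaged 43.6 ± 2.13 CPM in activated cells and 70.1 ± 4.89 CPM in dormant cells (SD, n = 3), 1.61-fold lower (edgeR adjusted p = 2.06e-07). ARSA, the sulfatase that acts on sulfatide, averaged 57.5 ± 1.03 CPM in activated cells and 22.2 ± 2.06 CPM in dormant cells, 2.58-fold higher.

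Transport genes of the lysosomal membrane, also chosen after their values were seen, were split as well. CLCN7, the chloride-proton exchanger, and its partner OSTM1, both needed for bone resorption by osteoclasts, fell 1.68-fold and 1.85-fold. SLC17A5, which exports the sialic acid that NEU1 releases, averaged 23.9 ± 1.28 CPM in activated cells and 58.5 ± 3.75 CPM in dormant cells, 2.45-fold lower. TPCN2, a cation channel, averaged 30.0 ± 1.14 CPM in activated cells and 12.1 ± 0.426 CPM in dormant cells, 2.48-fold higher.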
